A study of Mus musculus with 4 samples.

Results

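The genes described here are 49 transcription factors known from mesenchyme and the limb bud, taken by symbol from the 25177 gene symbols of the authors' deposited table, with 1 transcript per gene, the one with the highest mean expression. They were measured in nuclear RNA of NIH-3T3, a long-established mouse fibroblast line of embryonic origin, in 4 RNA-seq libraries. All 4 libraries come from cells that stably carry H2B-mCherry, the rtTA3G transactivator and a TRE3G-controlled CDX2 transgene, grown with puromycin. The Dox group (2 libraries) received doxycycline for 6 h at 500 ng/ml, and the noDox group (2 libraries) received the solvent alone for the same 6 h. One of the labels' protocols gives the dose per microlitre instead of per millilitre. Each library was made from 500000 cells. The labels do not say whether the line is a single clone, and no cells that received doxycycline without the CDX2 transgene are among the samples, so an effect of the drug and an effect of CDX2 cannot be told apart. Nothing says that the 2 libraries of a group came from separate cultures, so the spread between them may be technical. The p-values rest on errors shared across transcripts, which hardly used each gene's own libraries. The table gives 1 fold change and 1 mean level for each transcript and no value per library, so the levels below are group levels implied by those numbers, in CPM (read counts scaled to a common library size).

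Mesenchymal cells are held in their state by several families of DNA-binding proteins. Snail, Zeb and Twist factors repress epithelial genes, Sox9 with Sox5 and Sox6 directs cartilage formation, Runx2 directs bone formation, Scx and Mkx act in tendon, and Prrx, Tbx, Shox2, Msx, Dlx and Osr factors shape the limb bud and its skeleton. Related factors within a family often overlap in expression and share part of their function, so paralogues are compared below.

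CDX2, the induced factor, is a homeobox protein of the intestine, the trophectoderm and the posterior embryonic axis, and its gene served as the check of the labels. Cdx2 had an implied level of 4.96 CPM in noDox and 612 CPM in Dox, 124-fold higher, with a log2 fold change of 6.95 ± 0.091 (standard error, 2 libraries per group) in the authors' deposited table. The labelled cell type was checked against its markers. Of 10 fibroblast markers, 9 were abundant enough to be tested, with Col1a1 at a mean of 2086 CPM and Vim at 1376 CPM, while Dcn was too low to be tested. Of 23 markers of epithelial, endothelial, macrophage, muscle, chondrocyte and osteoblast cells, 5 were detected well enough to be tested, Cdh5 at a mean of 3.86 CPM, Myh3 at 3.31 CPM, Des at 2.00 CPM, Cd68 at 0.894 CPM and Cdh1 at 0.814 CPM. Of these 5, Cdh1 was lower and the others did not pass. Krt18, Adgre1, Myod1, Matn1, Sp7 and Ibsp had no reads in any library. Of the 9 tested fibroblast markers, 6 were lower in Dox, 1 (Pdgfra) was higher and 2 did not pass, with a median log2 fold change of -0.26 in the authors' deposited table. Of all genes tested, 13.4% were called lower, and of those with a mean of 4 CPM or more, 15.1%. The tested markers had a median level of 299 CPM, against 16.7 CPM over all genes tested, and at high levels small changes are more readily called. That shift of the fibroblast markers went with the falls described next, and its part in them was not tested. In bulk RNA, fewer cells that express a gene and less RNA per cell cannot be told apart.

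Of the 49 factors, 33 reached the minimum of 10 counts per library on average and were tested, and 16 had too few reads. With doxycycline, 17 of the 33 were lower at an adjusted p under 0.05, 2 (Shox2 and Mkx) were higher, and 14 did not pass, by limma's test in the authors' deposited table. The share lower was 51.5%, against a background of 13.4% of all 12355 genes tested. The factors were chosen with earlier results of these data known, so this and the shares below are descriptions and not independent support. Calls in the higher direction made up 11.3% of all genes tested, and calls in either direction 24.7%. The median log2 fold change was -0.29 over the 33 factors and -0.0011 over all genes tested in the authors' deposited table. Of the 33 factors, 27 had a log2 fold change below 0, against 50.3% of all genes tested.

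The power to call a change depends on the level, so the shares were also read at a mean level of 4 CPM or more, a limit chosen after the values were seen. There, 17 of 28 factors (60.7%) were lower, against 15.1% of 9441 genes, while 2 were higher, against 11.9% of those genes. None of the 5 tested factors below 4 CPM (Scx, Sox5, Ebf2, Tbx4 and Osr2) was called. A fall of at least 1.5-fold was found for 9 factors, against 3.22% of all genes tested, and these were Sox6, Osr1, Prrx1, Sox9, Dlx2, Ebf1, Snai1, Zeb1 and Twist2. The median log2 fold change of the 17 lower factors was -0.61, and that of all genes called lower was -0.37, in the authors' deposited table. When every standard error was widened by the spread of the test scores over all genes, 12 factors stayed lower, against 3.12% of all genes. The 5 lower factors that lost their call were Dlx1 (adjusted p = 0.210), Ebf3 (0.440), Runx2 (0.475), Sox4 (0.503) and Prrx2 (0.729), from limma's values with widened errors, and neither of the 2 higher factors stayed called.

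**Figure D1:**
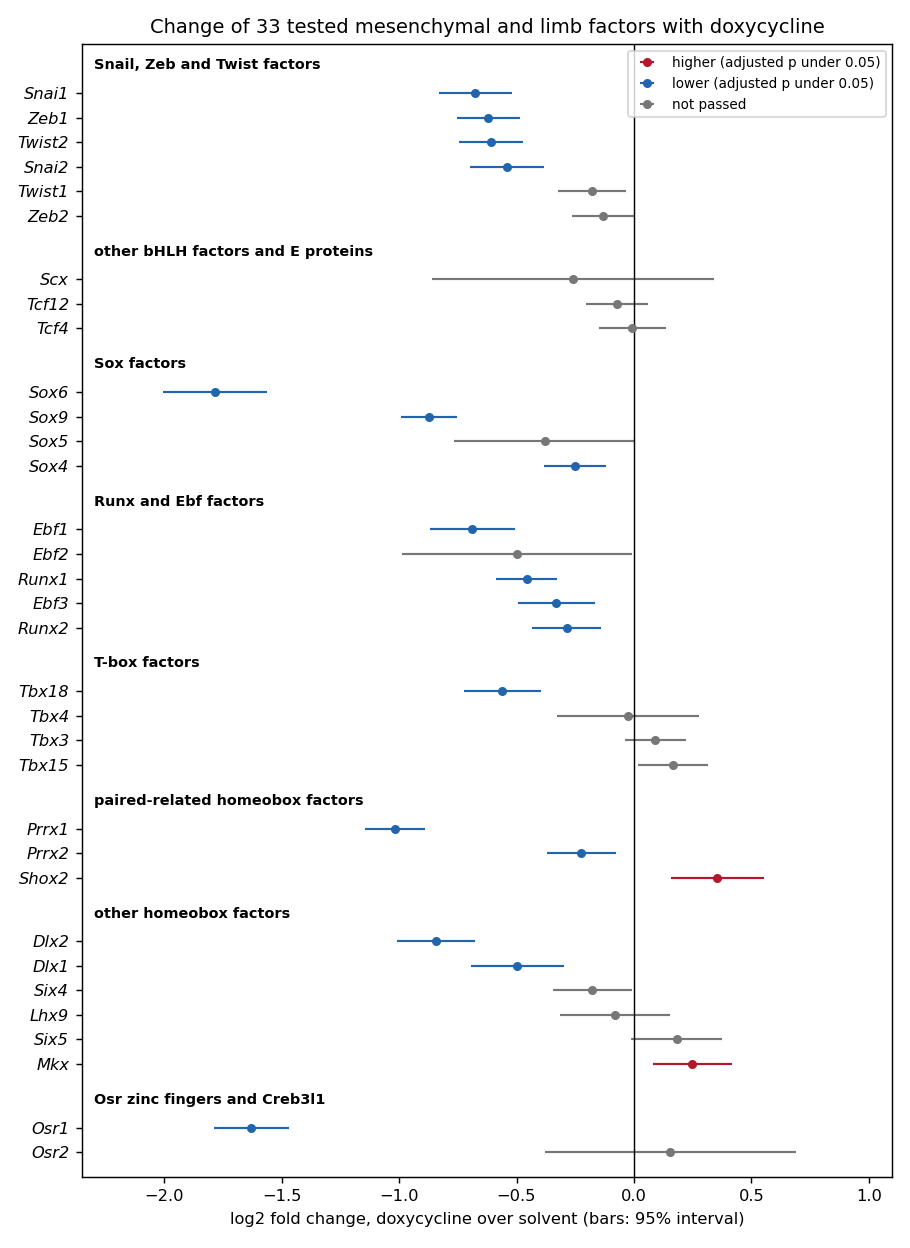
Log2 fold change (x axis, Dox over noDox) of the 33 tested factors, grouped by family, with points for the deposited values and bars for 95% normal intervals from the standard errors. The 17 blue points (lower) lie left of 0 and reach -1.78 for Sox6, and the 2 red points (higher) are Shox2 and Mkx.

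The summed level of the 33 factors was 1220 CPM in noDox and 853 CPM in Dox, so it dropped by 30.1%. Sox9 alone made up a large part of that sum, and the other 32 factors dropped by 23.8%. The summed level dropped by 66.3% for the Osr genes, by 42.5% for the paired-related homeobox genes, by 41.6% for the Sox genes, by 25.7% for the Runx and Ebf genes and by 25.6% for the Snail, Zeb and Twist genes. For the other basic helix-loop-helix (bHLH) factors it dropped by 3.49%, and for the T-box genes it was 1.33% higher. The sums carry no test.

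**Figure D2:**
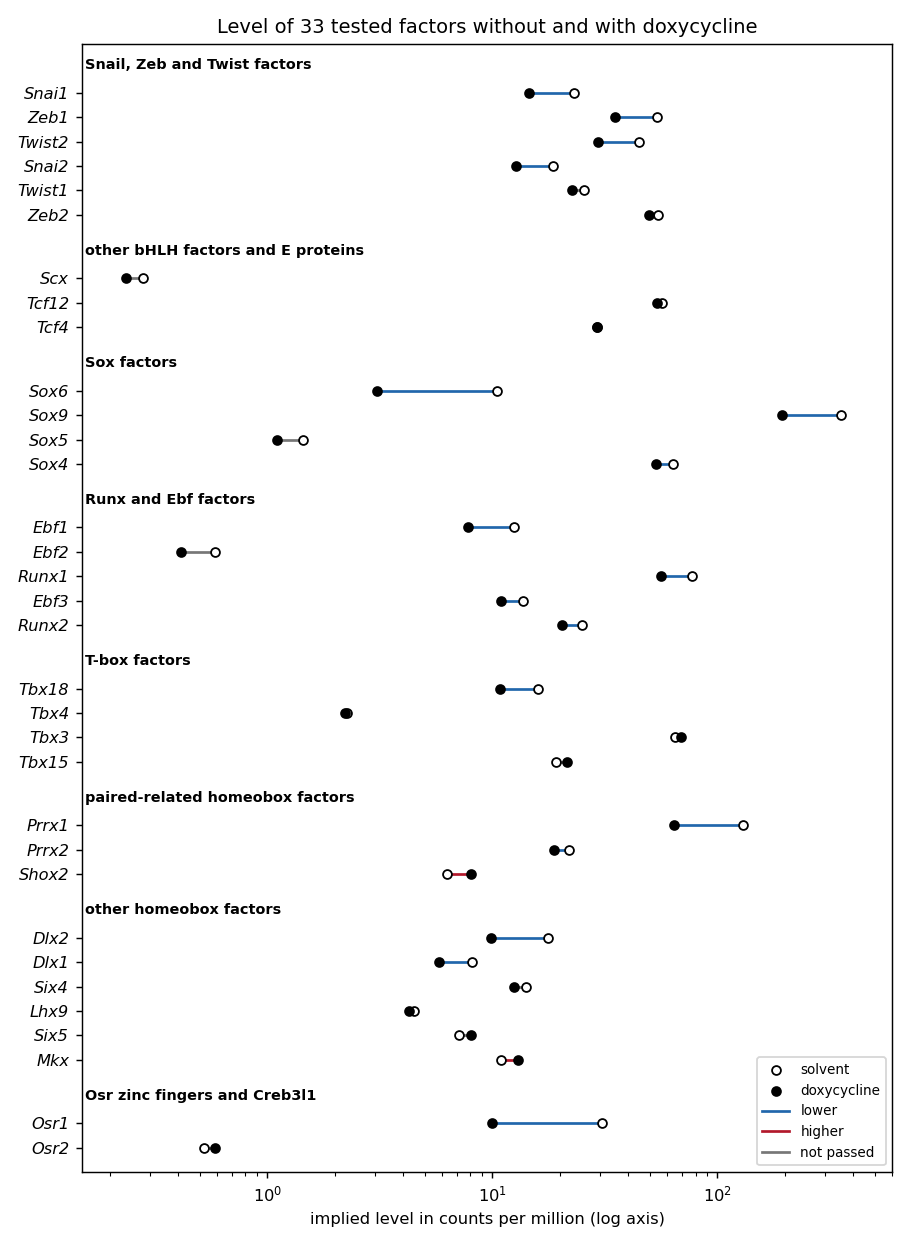
Implied level of the 33 tested factors in CPM (log axis) in noDox (open points) and Dox (filled points), joined by a line coloured by the call. Sox9 is the most abundant in both groups, at 354 CPM and 194 CPM, and Scx is among the least abundant, at 0.282 CPM and 0.235 CPM.

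Of the 6 Snail, Zeb and Twist factors, which repress epithelial genes during epithelial-mesenchymal transition, 4 were lower and 2 did not pass. Snai1 (chromosome 2, 167538195 to 167542811) had 23.2 CPM in noDox and 14.5 CPM in Dox. Its log2 fold change was -0.68 ± 0.079 (adjusted p = 1.29e-15) in the authors' deposited table. Snai2, the second Snail repressor, had 18.6 CPM in noDox and 12.8 CPM in Dox, with a log2 fold change of -0.54 ± 0.080 (adjusted p = 7.03e-10) in the authors' deposited table. Both Snail genes were thus near 1.5-fold lower. Their log2 fold changes differed by -0.14 ± 0.11 (Snai1 minus Snai2, 95% interval -0.36 to 0.086), a difference within its error.

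The Zeb zinc finger repressors behaved unlike each other. Zeb1 went from 53.7 CPM to 34.9 CPM, a log2 fold change of -0.62 ± 0.069 (adjusted p = 3.08e-17) in the authors' deposited table. Zeb2 had 54.5 CPM in noDox and 49.8 CPM in Dox. Per kilobase of exon its mean level was 5.86 CPM, against 7.48 CPM for Zeb1. The log2 fold change of Zeb2, -0.13 ± 0.068, did not pass (adjusted p = 0.235) according to the authors' deposited table. The difference between the pair was -0.49 ± 0.097 (Zeb1 minus Zeb2, adjusted p = 1.29e-06 over 14 pairs, normal test on limma values).

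Twist1 and Twist2 are bHLH repressors of mesenchyme and skull. Twist2 (chromosome 1, 91801461 to 91848034) had 44.8 CPM in noDox and 29.4 CPM in Dox, with a log2 fold change of -0.61 ± 0.070 (adjusted p = 2.63e-16) in the authors' deposited table. Twist1 had 25.6 CPM in noDox and 22.6 CPM in Dox, and its log2 fold change of -0.18 ± 0.074 did not pass (adjusted p = 0.0856) according to the authors' deposited table. The log2 fold changes differed by 0.43 ± 0.10 (Twist1 minus Twist2, adjusted p = 5.95e-05 over 14 pairs), but with widened errors the adjusted p was 0.100. Per kilobase of exon, the mean level of Twist2 was 27.2 CPM and that of Twist1 14.8 CPM, so the paralogue that fell was the more abundant of the pair. In the GENCODE annotation, 46.5% of the exon bases of Twist2 overlap Gm29100 on the opposite strand. The library kit keeps the strand, but no source used here says whether the counting used it, so the value of Twist2 is uncertain to that extent.

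The 250 bases before the start of both Twist genes are shown because the paralogues changed by unlike amounts. They come from RefSeq, build GRCm38.p6, the same sequence as mm10, and lie at chr12:33957421-33957670 (plus strand, Twist1) and chr1:91801211-91801460 (plus strand, Twist2). Capitals mark ATAAA, the core of known CDX sites, searched on both strands.
Twist1: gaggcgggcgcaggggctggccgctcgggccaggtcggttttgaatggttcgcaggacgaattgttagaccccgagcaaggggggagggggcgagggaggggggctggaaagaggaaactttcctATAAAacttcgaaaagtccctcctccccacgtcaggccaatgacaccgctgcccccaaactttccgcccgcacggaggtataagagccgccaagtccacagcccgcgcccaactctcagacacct
Twist2: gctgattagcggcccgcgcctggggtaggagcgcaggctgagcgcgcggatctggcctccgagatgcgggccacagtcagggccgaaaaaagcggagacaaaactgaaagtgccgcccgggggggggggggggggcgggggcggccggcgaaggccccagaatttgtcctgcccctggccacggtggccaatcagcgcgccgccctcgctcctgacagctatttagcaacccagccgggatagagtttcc
Twist1, which did not pass, holds 1 match, with 120 bases between it and the transcription start, and Twist2, which fell, holds none in this window. The Twist1 match lies within TATAAA, a longer word that contains ATAAA.

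The 4 other bHLH factors were Tcf4 and Tcf12, which are E proteins that pair with Twist and Scx, the tendon factor Scx, and Tcf21, known from visceral and heart mesenchyme. None of the 3 tested passed. Tcf12 had 56.9 CPM and 54.1 CPM in noDox and Dox, and Tcf4 had 29.3 CPM and 29.2 CPM. The 95% interval of the log2 fold change was -0.15 to 0.13 for Tcf4 and -0.21 to 0.058 for Tcf12, which leaves out changes of the size seen for Twist2. Scx was close to the count minimum, with a mean of 11.3 counts per library and a wide interval of -0.86 to 0.34. Tcf21 had no reads.

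Of 5 Sox factors, 3 were lower, 1 did not pass and Sox11 had no reads. Sox9 (chromosome 11, 112782210 to 112787757), the master factor of cartilage, was the most abundant of all 33 tested factors, also per kilobase of exon (mean 63.3 CPM per kilobase). Its level was 354 CPM in noDox and 194 CPM in Dox, and so fell by 45.3%. The log2 fold change of Sox9 was -0.87 ± 0.061 (adjusted p = 1.07e-43) in the authors' deposited table. Sox6 (chromosome 7, 115470872 to 115824710), a partner of Sox9 in cartilage, had the largest fall of the 33 factors. It went from 10.5 CPM to 3.06 CPM, 3.44-fold lower, with a log2 fold change of -1.78 ± 0.11 (adjusted p = 5.12e-53) in the authors' deposited table. Among the 10941 tested genes that averaged 1 CPM or more, that fall held rank 20 from the lowest.

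Sox5, the close paralogue of Sox6, was much less abundant, with 1.44 CPM in noDox and 1.11 CPM in Dox. Its log2 fold change of -0.38 ± 0.20 did not pass (adjusted p = 0.229) in the authors' deposited table, and the difference from Sox6 was 1.40 ± 0.23 (Sox5 minus Sox6, adjusted p = 2.40e-09 over 14 pairs). Sox4, a factor of many progenitor cells, had 63.3 CPM in noDox and 53.1 CPM in Dox, with a log2 fold change of -0.25 ± 0.067 (adjusted p = 0.00217) in the authors' deposited table. Sox4 was called lower, by 1.19-fold. In the annotation, 54.6% of its exon bases overlap Gm26735 on the opposite strand.

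Of 6 Runx and Ebf factors, 4 were lower. Runx1 (chromosome 16, 92601466 to 92697329), known from blood and from cartilage progenitors, had 77.4 CPM in noDox and 56.4 CPM in Dox. The log2 fold change of Runx1 was -0.46 ± 0.066 (adjusted p = 2.36e-10) in the authors' deposited table. Runx2, the master factor of bone, had 25.0 CPM and 20.5 CPM and a log2 fold change of -0.29 ± 0.075 (adjusted p = 0.00155) according to the authors' deposited table. The Runx2 call was lost with widened errors and the Runx1 call was not. The difference between the pair was -0.17 ± 0.10 (Runx1 minus Runx2, 95% interval -0.37 to 0.026) and did not pass. Runx3 held under 1 count per library and was not tested.

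The Ebf factors act in fat, bone and B cell precursors. Ebf1 had 12.5 CPM in noDox and 7.78 CPM in Dox, with a log2 fold change of -0.69 ± 0.092 (adjusted p = 4.69e-12) in the authors' deposited table. Ebf3 had 13.8 CPM and 10.9 CPM, and its log2 fold change was -0.33 ± 0.084 (adjusted p = 0.00103) in the authors' deposited table. Both fell, though the Ebf3 call was lost with widened errors. The difference was -0.36 ± 0.12 (Ebf1 minus Ebf3, adjusted p = 0.00824 over 14 pairs, 0.322 with widened errors). Ebf2 was at 0.583 CPM and 0.413 CPM, and its log2 fold change of -0.50 ± 0.25 in the authors' deposited table did not pass.

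T-box factors include several that act in the limb bud. Of 4 tested, 1 was lower and 3 did not pass, with a median log2 fold change of 0.033 in the authors' deposited table. Tbx18 (chromosome 9, 87702800 to 87731260), a factor of somites and mesothelium, had 16.0 CPM in noDox and 10.9 CPM in Dox, with a log2 fold change of -0.56 ± 0.084 (adjusted p = 1.13e-09) in the authors' deposited table. Its annotated exons overlap D030062O11Rik on the opposite strand over 20.6% of their bases. Tbx15, its close paralogue, had 19.2 CPM and 21.6 CPM, and its log2 fold change of 0.17 ± 0.077 did not pass (adjusted p = 0.149) according to the authors' deposited table. The difference was 0.73 ± 0.11 (Tbx15 minus Tbx18, adjusted p = 1.25e-09 over 14 pairs).

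Tbx3, a factor of the limb margins, was the most abundant T-box gene, with 64.8 CPM in noDox and 69.0 CPM in Dox. The 95% interval of its log2 fold change was -0.040 to 0.22. Tbx4, the hindlimb factor, had 2.26 CPM and 2.22 CPM. Its forelimb counterpart Tbx5 and the margin factor Tbx2 had means of 0.158 and 1.56 counts per library and were not tested.

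The paired-related homeobox genes held 1 of the 3 falls of at least 2-fold. Prrx1 (chromosome 1, 163245119 to 163313650), a known marker of limb bud mesenchyme, had 130 CPM in noDox and 64.3 CPM in Dox, 2.02-fold lower. The log2 fold change of Prrx1 was -1.02 ± 0.065 (adjusted p = 1.02e-52) in the authors' deposited table. Prrx2, its paralogue, had 22.0 CPM and 18.8 CPM, with a log2 fold change of -0.22 ± 0.076 (adjusted p = 0.0238) in the authors' deposited table. Per kilobase of exon their mean levels were alike, 18.5 CPM for Prrx1 and 18.1 CPM for Prrx2, yet the log2 fold changes differed by -0.79 ± 0.10 (Prrx1 minus Prrx2, adjusted p = 2.13e-14 over 14 pairs, 0.00177 with widened errors). The call of Prrx2 was lost with widened errors (adjusted p = 0.729), and also relative to ribosomal protein genes (adjusted p = 0.0591) or at a limit of 0.01.

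The 250 bases before both Prrx starts are shown for the same reason as those of the Twist pair, from the same table and build, at chr1:163313651-163313900 (minus strand, Prrx1) and chr2:30845117-30845366 (plus strand, Prrx2). Capitals mark ATAAA or its reverse complement TTTAT.
Prrx1: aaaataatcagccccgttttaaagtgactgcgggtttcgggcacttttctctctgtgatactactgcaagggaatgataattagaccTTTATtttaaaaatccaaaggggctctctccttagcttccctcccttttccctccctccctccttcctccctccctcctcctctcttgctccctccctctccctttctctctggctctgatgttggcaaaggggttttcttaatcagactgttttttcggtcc
Prrx2: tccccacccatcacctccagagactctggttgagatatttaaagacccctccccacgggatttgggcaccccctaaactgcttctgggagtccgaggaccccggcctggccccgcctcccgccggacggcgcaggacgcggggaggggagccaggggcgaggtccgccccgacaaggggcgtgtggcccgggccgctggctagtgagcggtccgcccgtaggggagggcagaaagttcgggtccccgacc
Prrx1, the more strongly lowered of the pair, holds 1 match as the reverse complement, with 158 bases between it and the transcription start, and Prrx2 holds none in this window.

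Shox2, which patterns the proximal limb, was the larger of the 2 rises. It had 6.31 CPM in noDox and 8.07 CPM in Dox, 1.28-fold higher, with a log2 fold change of 0.35 ± 0.10 (adjusted p = 0.00476) in the authors' deposited table. Alx4, a factor of the face and limb, fell short of the count minimum with a mean of 4.19 counts per library (adjusted p = 0.0856 in the authors' deposited table). Pitx1, the hindlimb factor, had a mean of 0.283 counts, and Alx1 had no reads.

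Of 13 other homeobox factors, 6 were tested, with 2 lower, 1 higher and 3 not passed. Dlx1 and Dlx2 are neighbours on chromosome 2 that act in the jaw, limb ridge and forebrain. Dlx2 (71543408 to 71546754) had 17.7 CPM in noDox and 9.88 CPM in Dox, with a log2 fold change of -0.84 ± 0.085 (adjusted p = 3.49e-21) in the authors' deposited table. Dlx1 (71529445 to 71533981) had 8.16 CPM and 5.78 CPM, with a log2 fold change of -0.50 ± 0.10 (adjusted p = 1.82e-05) according to the authors' deposited table. Both were called lower, though the Dlx1 call was lost with widened errors, and they had a difference of 0.35 ± 0.13 (Dlx1 minus Dlx2, adjusted p = 0.0135 over 14 pairs, 0.322 with widened errors).

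Mkx, the Mohawk homeobox factor of tendon, had 10.9 CPM in noDox and 13.0 CPM in Dox. Its log2 fold change of 0.25 ± 0.087 passed narrowly (adjusted p = 0.0304) in the authors' deposited table, and with widened errors the adjusted p was 0.756. Six4 and Six5, factors of muscle precursors, and Lhx9, a factor of the limb bud and gonad, did not pass. Six4 had 14.2 CPM and 12.5 CPM, Six5 had 7.11 CPM and 8.07 CPM, and Lhx9 had 4.49 CPM and 4.25 CPM in noDox and Dox. Msx1, Dlx5, Meox1, Meox2, Barx1 and Six2 had no reads in any library, and Msx2 had a mean of 0.0946 counts.

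Osr1 and Osr2 are zinc finger factors of the intermediate mesoderm and of limb connective tissue. Osr1 (chromosome 12, 9574442 to 9581500) had 30.9 CPM in noDox and 9.98 CPM in Dox, 3.09-fold lower. The log2 fold change of Osr1 was -1.63 ± 0.081 (adjusted p = 9.76e-87) in the authors' deposited table, and the fall held rank 29 of the 10941 genes. Osr2 was far less abundant, with 0.524 CPM and 0.583 CPM, and its log2 fold change of 0.15 ± 0.27 in the authors' deposited table did not pass. The difference was -1.78 ± 0.28 (Osr1 minus Osr2, adjusted p = 1.67e-09 over 14 pairs). Creb3l1, a membrane-bound factor of bone matrix secretion, was under the count minimum, with about 1.59 implied counts in noDox and 8.29 in Dox. It was the 1 untested gene with an adjusted p under 0.05 (log2 fold change 2.07 ± 0.54, adjusted p = 0.00155, in the authors' deposited table), and it is not counted among the 2 higher.

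The 9 factors with no reads were Tcf21, Sox11, Alx1, Msx1, Dlx5, Meox1, Meox2, Barx1 and Six2. At an effective library size of about 45700000 counts, a count of 0 allows a level of up to 0.0656 CPM in a library (3 counts, counting error only). The size assumes that 0.5 counts were added per library, which no source states. The smallest step is then 0.5 counts, so a larger added constant is also possible. With a larger constant, the size and all counts given here would rise and this CPM limit would fall.

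**Figure D3:**
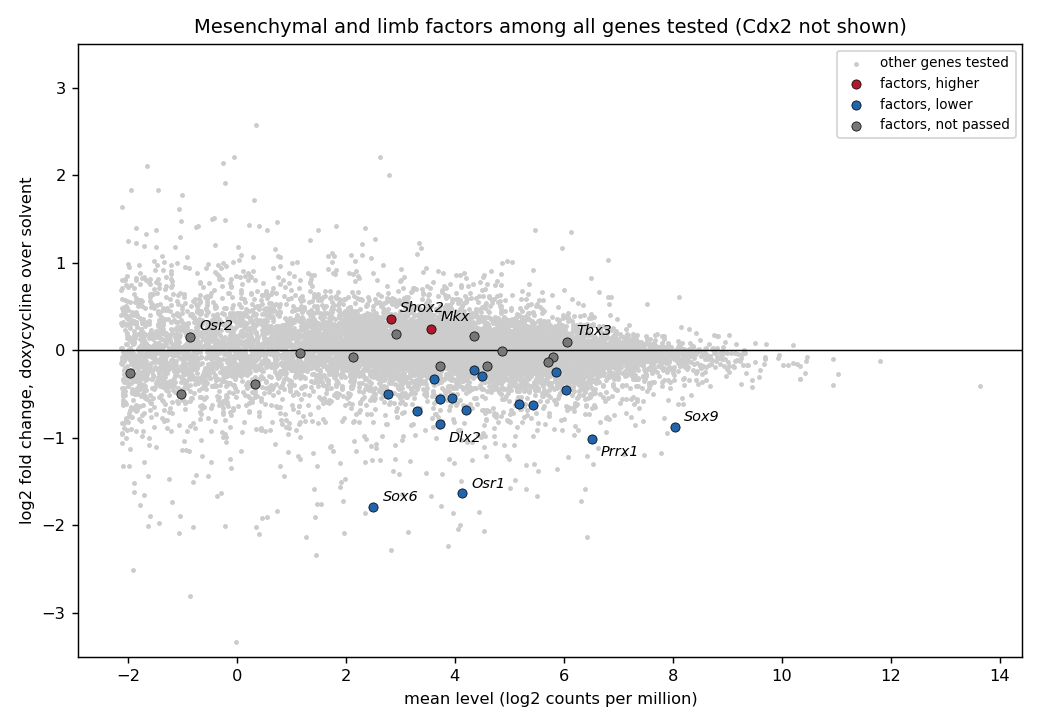
Log2 fold change (y axis) against mean level (x axis, log2 CPM) for the genes tested other than Cdx2 (light grey) and the 33 factors (blue lower, red higher, dark grey not passed). Of the factors, 27 lie below 0, and the lowest are Sox6, Osr1 and Prrx1.

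Across the families, 24 paralogue pairs were listed, and in 14 of them both genes were tested. The fold changes differed in 9 pairs and did not pass in 5, with Benjamini-Hochberg adjustment over the 14 differences and errors from limma's table. The errors of both genes were taken as independent, although all values come from the same libraries. No share was worked out for pairs of unrelated genes, so the count of 9 is not a result about paralogues as such. With widened standard errors 5 pairs differed: Prrx1 and Prrx2, Zeb1 and Zeb2, Sox5 and Sox6, Tbx15 and Tbx18, and Osr1 and Osr2. In each of these 5 pairs 1 gene was called lower and the other was not, except that Prrx2 was also called lower. Six4 and Six5, neither of them called, had a difference of -0.36 ± 0.13 (Six4 minus Six5, adjusted p = 0.0102 over 14 pairs, 0.322 with widened errors). The intervals of the 5 pairs that did not pass still allowed differences, up to 0.71 on the log2 scale for Ebf1 and Ebf2, whose lower bound was -0.71.

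**Figure D4:**
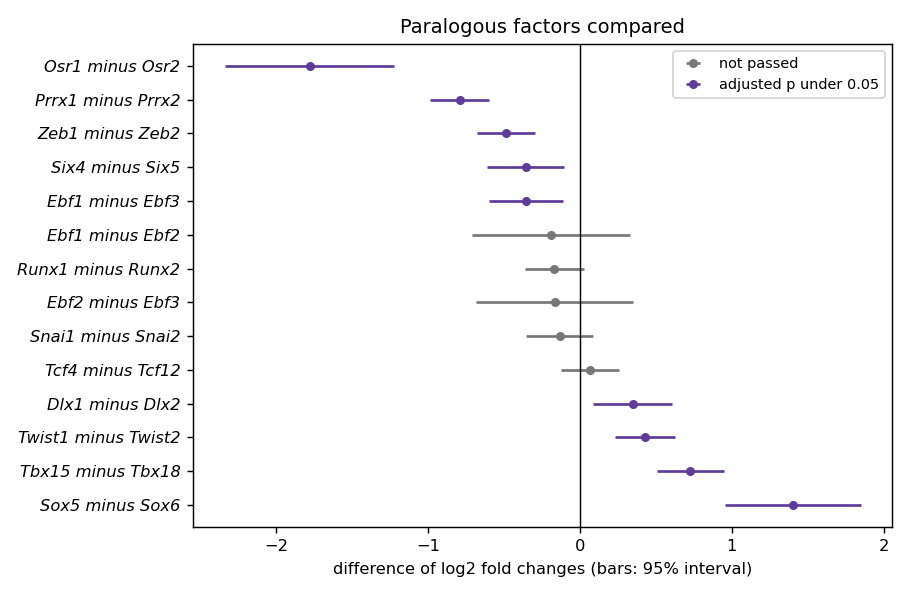
Difference of the log2 fold changes (x axis, first gene minus second) for the 14 paralogue pairs (y axis), with 95% normal intervals as bars. The 9 purple pairs differ at an adjusted p under 0.05, from -1.78 for Osr1 minus Osr2 to 1.40 for Sox5 minus Sox6, and the 5 grey pairs have intervals that cross 0.

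The table lists 110 transcripts of the 49 factors, of which 93 passed the count minimum. For 18 factors several transcripts were tested, and for 15 of these they start at different places. In all 18 the range of the log2 fold change over transcripts was smaller than the largest of their standard errors, though the transcripts share exons and so reads. The 4 Runx1 transcripts start up to 128745 bases apart and lay between -0.47 and -0.45 in the authors' deposited table. Of 8 Runx2 transcripts, 7 were called lower and the least abundant 1 was not (adjusted p = 0.157 in the authors' deposited table).

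On either side of the 17 lower factors, the nearest tested genes mostly did not pass the same test. Of 33 such neighbours that are not themselves among the 49, 4 were lower (12.1%), 4 were higher and 25 did not pass, with a median log2 fold change of -0.0071 in the authors' deposited table. Their share lower was near the background of all genes. The median gap between factor and neighbour was 249 kilobases, and it was 3929 kilobases for Sox4 and Mrs2. Genes too low to be tested can lie in between. The neighbours of Prrx1 were Prrc2c and Gorab, with log2 fold changes of 0.025 and -0.023, and those of Sox6 were Psma1 and 1110004F10Rik, with 0.034 and -0.10, in the authors' deposited table. Dlx1as, an antisense RNA that overlaps Dlx1, had a log2 fold change of -0.48 ± 0.13 (adjusted p = 0.00215) in the authors' deposited table, and with the counting's use of strand not stated, its reads and those of Dlx1 cannot be told apart where they overlap.

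RefSeq promoter windows were matched for 30 of the 49 factors, 22 of them tested. Zeb1, Tcf4 and Mkx were left out of the search because of their chromosome, whether or not they have a window. The windows of Sox5 and Runx2 lie at other starts, 262462 and 77979 bases from the start of the transcript used, and the other 28 lie at that start. ATAAA was found on either strand of the 250 bases before the start in 7 of the 22 (31.8%), against 37.3% of all 32851 promoters in the table. Unlike the set of factors, this background of all promoters was not limited to tested genes or to 1 window per gene. Without Sox5 and Runx2, a count added after the values were seen, it was found in 7 of 20 (35.0%). CATAAA, a longer form of the CDX core that includes it, was found in 0 of the 30, against 10.8% of all promoters. CAGGTG, the E-box known to be bound by Snail and Zeb factors, was found in 1 of the 22, against 17.2%. TATAAA, which contains ATAAA, was found in 3 of the 22, against 12.4%. The matched windows were richer in G and C, with a median of 62.0% against 52.4%, which bears on how often AT-rich letters occur. Of the 13 matched factors that were lower, 3 held ATAAA, and of the 8 that did not pass, 3 did. The letters are a description and not evidence of binding.

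Genes that work with these factors or lie downstream of them were read from lists of known targets and partners, which share some genes, against the same background of 13.4% lower and 11.3% higher. At a mean of 4 CPM or more the background was 15.1% lower and 11.9% higher. That background is not matched to the lists, whose median levels ran from 0.883 CPM (epithelial) to 191 CPM (mesenchymal), against 16.7 CPM over all genes tested. These lists, too, were chosen with earlier results of these data known. Of the inhibitors and partners of the bHLH factors, 6 were tested and 4 were lower, all 4 of them Id genes, which bind E proteins and keep them from DNA. Id3 went from 24.7 CPM to 7.21 CPM, with a log2 fold change of -1.78 ± 0.086 (adjusted p = 3.29e-92) in the authors' deposited table. Id2 went from 5.23 CPM to 1.40 CPM (-1.90 ± 0.15), Id1 from 31.0 CPM to 18.0 CPM (-0.78 ± 0.075) and Id4 from 6.73 CPM to 4.06 CPM (-0.73 ± 0.11, log2 fold changes of the authors' deposited table). The median over the 6 genes was -0.76.

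Of 10 tested osteogenic genes, 6 were lower and none was higher, with a median log2 fold change of -0.39 in the authors' deposited table. Vdr, the vitamin D receptor, went from 33.5 CPM to 8.18 CPM, the largest fall of the list (-2.03 ± 0.083 in the authors' deposited table). Smpd3, a sphingomyelinase of bone matrix, had -0.68 ± 0.12, the matrix protein gene Spp1 had -0.47 ± 0.071 and the collagen gene Col1a2 had -0.33 ± 0.057, as log2 fold changes of the authors' deposited table. Of 6 tested chondrogenic genes, known targets of Sox9, Sox5 and Sox6, 2 were lower, 1 was higher and 3 did not pass. Col9a3, a cartilage collagen gene, went from 1.23 CPM to 0.616 CPM, and Col27a1, a fibrillar collagen gene, went from 6.99 CPM to 9.15 CPM. Of 6 tested tendon genes, 2 were lower, Tnc and Col12a1, and 4 did not pass.

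Epithelial genes that Snail, Zeb and Twist factors are known to repress were nearly absent: 4 of 24 were tested, 2 of them were lower and 2 did not pass. Cdh1, the E-cadherin gene, went from 1.43 CPM to 0.464 CPM (log2 fold change -1.62 ± 0.22, adjusted p = 2.14e-11, in the authors' deposited table), and Grhl2, an epithelial transcription factor, from 2.96 CPM to 1.67 CPM. Krt19, an epithelial keratin gene, was under the count minimum, with a mean of 1.18 counts per library, and had a log2 fold change of 3.60 ± 0.62 (adjusted p = 2.07e-07) in the authors' deposited table. Falls among the tested genes of the list thus stood beside a higher value at very low counts. Of 12 tested mesenchymal genes, 5 were lower, 1 was higher and 6 did not pass. Vim, Fn1 and Mmp2 had log2 fold changes between -0.26 and -0.25 in the authors' deposited table.

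Of 15 tested Runx cofactors, 11 did not pass, 3 were higher and 1 was lower, with a median log2 fold change of 0.068 in the authors' deposited table. The corepressor genes Tle2 (0.60 ± 0.13) and Tle1 (0.31 ± 0.071) and the acetyltransferase gene Ep300 (0.26 ± 0.064) rose, and Cbfb, the shared partner of Runx proteins, fell (-0.18 ± 0.068), as log2 fold changes of the authors' deposited table. Of 12 tested paralogues outside the 49, 5 were lower and 2 were higher. Sox12, a close relative of Sox4, went from 22.9 CPM to 14.7 CPM (-0.64 ± 0.078), and Irx2 and Irx1 fell by 0.36 and 0.37 on the log2 scale, in the authors' deposited table. Creb3 rose from 10.7 CPM to 14.9 CPM. Of 18 other tested limb patterning genes, 6 were lower and 4 were higher. Tfap2a, a factor of the limb ectoderm and neural crest, went from 49.1 CPM to 23.2 CPM and the chromatin protein gene Hmga2 from 338 CPM to 257 CPM, while Etv4, an effector of fibroblast growth factor signalling, went from 22.0 CPM to 33.8 CPM.

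**Figure D5:**
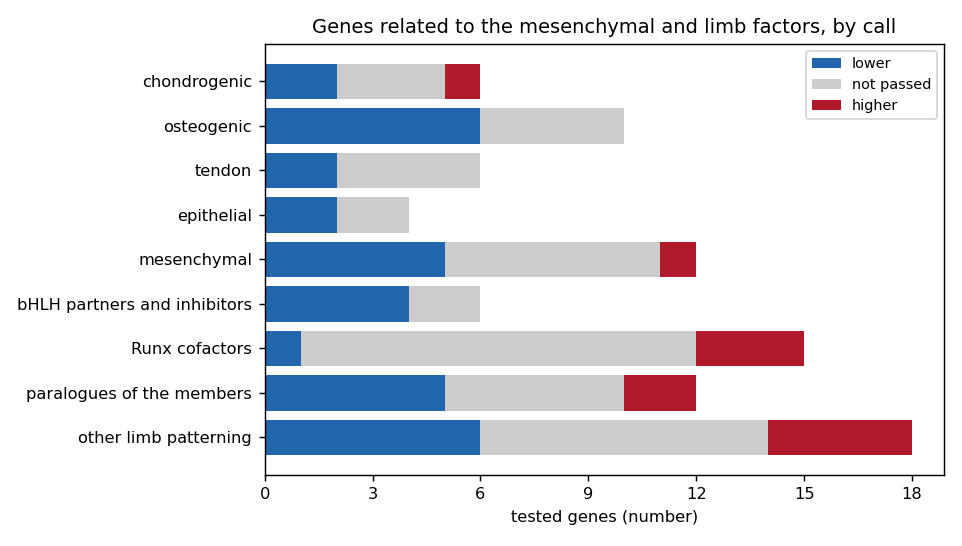
Number of tested genes (x axis) that were lower, not passed or higher in each list of related genes. The osteogenic list has 6 of 10 genes lower, and the Runx cofactors have 11 of 15 not passed.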

How the data were processed

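Nuclear RNA was measured in 4 libraries, 2 Dox and 2 noDox, with groups taken from the sample titles. The submitters' processing notes list, without saying what each did, HOMER 4.10, STAR 2.7.1a, limma, edgeR, Picard and SAMtools 1.10, and the mouse build mm10. The authors' deposited table holds 1 comparison of the 2 groups over 40739 transcripts. Per the file headers its values are limma's log2 fold change and mean log2 expression, a t score, a B score that was not used, a p-value and an adjusted p-value. It holds no counts per library, so the authors' own test was used in place of a count test.

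The members and gene lists were chosen with earlier results of these data known. Dividing each log2 fold change by its t score gave the standard error. Level and fold predicted 99.2% of the variance in the logarithm of that error over 19541 rows, so errors were shared across transcripts and hardly used each gene's own libraries. Group levels were taken as 2 to the power of the mean log2 CPM plus or minus 0.5 times the log2 fold change, and are approximate because the authors' fit may weight libraries. The lowest 12522 rows lay at whole steps (100%, tolerance 0.01), and counts are given as if 0.5 had been added per library. The smallest step was 0.5 counts on that scale, so counts are relative to the added constant. Genes that averaged 10 counts per library or more (0.230 CPM) were tested, and calls use the authors' adjusted p-value with a limit of 0.05. The median standard error was 0.080 (log2) over the genes tested.

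Paralogue differences were tested with normal errors from both rows and Benjamini-Hochberg adjustment. Widened errors multiply each standard error by 2.08, a robust SD of the t scores of all tested genes. All members are named, with up to 4 called genes per list by smallest p, except that some genes of the lists are not reported here. Promoters came from RefSeq (GRCm38.p6), and 250 bases before the start nearest to that of the transcript used were searched. Exon overlaps came from GENCODE M21. The computing steps were tested on simulated data and used Python 3.11.15, pandas 2.3.3, numpy 2.4.6 and scipy 1.17.1, with figures by matplotlib 3.10.9. The alternatives were other thresholds, floors, transcripts, scalings and adjustments.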

Additional observations from a re-analysis of the deposited data

How the results depend on the processing

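Of the 17 lower factors, 16 were lower at an adjusted p under 0.01, 9 at a fold of at least 1.5, 12 with widened standard errors, 16 with the least abundant tested transcript and 16 relative to ribosomal protein genes. The count stayed at 17 under the other alternatives run (adjustment over the genes tested, no floor, a floor of 50 counts, the longest transcript, the median of all genes set to 0). Of the 2 higher factors, 1 was left at an adjusted p under 0.01, 0 at a fold of at least 1.5 and 0 with widened standard errors. Without a floor or relative to ribosomal protein genes 3 were higher, the added genes being Creb3l1 and Tbx15 (log2 fold change 0.21, adjusted p = 0.0238 in limma values rescaled here). The widened errors left 5 of the 9 paralogue pairs that differed. No called factor changed direction under these alternatives, while Tcf4 and Tbx4, neither of them called, took log2 fold changes above 0 (0.038 and 0.020) relative to ribosomal protein genes.

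Over all genes, 1654 were lower and 1393 higher; at a fold of at least 1.5 the counts were 398 and 300, and with widened errors 386 and 190. Adjustment over the genes tested gave 1817 lower and 1575 higher, and with that same adjustment setting the median of 75 ribosomal protein genes (-0.045) to 0 gave 1439 and 2165, while the counts of the factors moved by 1 in each direction. No paired analysis was possible because the table holds no values per library. For the same reason the edgeR and DESeq2 count tests, the replicate block and leaving out each library were not run. Depth limits the factors under 4 CPM, where standard errors reached 0.31 for Scx.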
